A study of Mus musculus with 18 samples.

Results

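The regions described here are stretches of open chromatin that lie at the promoters of genes on both strands of the mouse genome. They were taken from a table of 65983 accessible regions, in which each region lists the genes it overlaps, with their strand and a class (promoter, exon, intron or a combination). A region was chosen if it had a promoter entry for at least 1 plus-strand gene and for at least 1 minus-strand gene. This rule found 3865 regions, which is 16.9% of the 22920 regions with any promoter entry and 5.86% of all regions. They covered 2431350 of the 37143750 bp in the table (6.55%). The choice used gene annotation and position only, and no measured change entered it.

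ATAC-seq, which maps open chromatin by the insertion of sequencing adapters with a transposase, was performed on 18 samples of mouse CD4 T cells. The labels give 6 groups of 3 samples, formed by genotype (KO or WT, where the series names the knockout as Id3), cell label and time: Th1 at 24 h, and Tcmp and Teff at 72 h. All groups started from naive CD4 T cells that were activated with beads carrying antibodies to CD3 and CD28, in a Th1 medium with IL2, IL12 and an antibody to IL4. The labels do not spell out Tcmp and Teff, and they do not give the strain, age or sex of the mice, how the Id3 allele was made, or whether replicate samples were taken from different mice or wells. Id3 is a helix-loop-helix protein that binds E proteins (Tcf3, Tcf4 and Tcf12) and keeps them from binding DNA. The deposited table holds no value for a single sample, its depth is unknown, and its fold changes and p-values follow the order of the rows along the genome. None of these statistics was used. Positions, widths, window numbers and annotation were identical under 6 of the 6 contrasts in the table, so the results below describe the single set of regions that was tested in all contrasts, not whether each region was open in every group, and carry no comparison between KO and WT or between time points. The labelled cell type was checked only by the presence of regions: 17 of 18 genes of the T cell receptor complex and its signalling had a promoter region, against 9 of 17 genes of B cells, myeloid cells and erythroid cells.

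A pair of genes whose transcripts start close together on opposite strands and run away from each other shares a bidirectional promoter. Such promoters are usually rich in CpG dinucleotides, often lack a TATA box, and are known from genes for DNA repair, mitochondrial proteins and other constantly used functions. Many active mammalian promoters are also transcribed in the upstream direction into short-lived noncoding RNA, so the partner on the other strand may be a noncoding gene.

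For some well-known gene pairs the bases that separate the starts can be printed in full. These were available only for divergent starts that lie close together, so the short spacing is part of the choice. Pairs with starts further apart, such as Npat/Atm (376 bp) and Son/Gart (852 bp), are not shown. The bases between the starts also do not mark the extent of a promoter. The following bases lie strictly between the annotated starts of both genes, taken from RefSeq promoter sequences and printed 5′ to 3′ on the plus strand (GRCm38.p6), so that the minus-strand gene begins just to the left and the plus-strand gene just to the right. Capitals mark matches, on either strand, to the cores of ETS factors (CCGGAAG), NRF1 (GCATGCGC), NF-Y (CCAAT), SP factors (GGGCGG) or an E-box (CAGGTG). The immunity pair of Tap1, a peptide transporter subunit of antigen presentation, and Psmb9, a catalytic subunit of the immunoproteasome, comes first (chr17:34187331-34187555), followed by Nbr1, an autophagy receptor, and Brca1, a DNA repair gene (chr11:101551956-101552106).
Tap1/Psmb9: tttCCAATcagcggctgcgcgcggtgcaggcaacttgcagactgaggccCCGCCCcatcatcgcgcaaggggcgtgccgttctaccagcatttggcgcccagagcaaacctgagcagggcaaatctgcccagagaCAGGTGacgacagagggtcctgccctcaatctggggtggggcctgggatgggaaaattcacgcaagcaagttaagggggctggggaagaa
Nbr1/Brca1: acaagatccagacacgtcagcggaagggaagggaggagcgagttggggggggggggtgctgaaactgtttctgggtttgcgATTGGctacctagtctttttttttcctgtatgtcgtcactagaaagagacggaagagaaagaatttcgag
The next 3 were chosen because their matches differ: Trmt2a, a tRNA methyltransferase, with Ranbp1, a regulator of the Ran GTPase (chr16:18248695-18248882), Pms2, a mismatch repair gene, with Aimp2, a scaffold of the tRNA synthetase complex (chr5:143909840-143910000), and Nthl1, a base excision repair glycosylase, with Tsc2, an inhibitor of mTOR signalling (chr17:24632628-24632681).
Trmt2a/Ranbp1: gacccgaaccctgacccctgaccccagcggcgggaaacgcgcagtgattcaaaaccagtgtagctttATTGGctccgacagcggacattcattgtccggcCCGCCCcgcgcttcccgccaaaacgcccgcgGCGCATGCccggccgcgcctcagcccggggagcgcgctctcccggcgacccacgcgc
Pms2/Aimp2: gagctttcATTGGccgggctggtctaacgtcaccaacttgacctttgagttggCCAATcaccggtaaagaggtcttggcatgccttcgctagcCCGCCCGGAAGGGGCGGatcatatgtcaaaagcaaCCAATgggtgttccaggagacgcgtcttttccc
Nthl1/Tsc2: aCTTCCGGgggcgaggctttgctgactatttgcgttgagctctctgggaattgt
The last 2 are Ercc8, a nucleotide excision repair gene, with Ndufaf2, an assembly factor of respiratory complex I (chr13:108158626-108158737), and Entpd1, the ectonucleotidase CD39 of activated and regulatory T cells, with Tctn3, a protein of the primary cilium (chr19:40612232-40612365).
Ercc8/Ndufaf2: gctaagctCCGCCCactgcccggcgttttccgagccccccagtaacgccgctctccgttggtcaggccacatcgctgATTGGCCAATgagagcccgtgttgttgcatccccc
Entpd1/Tctn3: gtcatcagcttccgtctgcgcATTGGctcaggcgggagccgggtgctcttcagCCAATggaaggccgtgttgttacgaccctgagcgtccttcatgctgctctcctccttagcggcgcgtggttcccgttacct
The printed stretches ranged from 54 bases at Nthl1/Tsc2 to 225 bases at Tap1/Psmb9. The Trmt2a/Ranbp1 stretch was 70.2% G and C with 26 CpG dinucleotides, while Nbr1/Brca1 had 50.3% and 7. Pms2/Aimp2 held 6 matches in 161 bases, where an ETS match at position 98 overlaps an SP match at position 94 and is followed directly by another at position 105 (counted from the first printed base). Nthl1/Tsc2 held a single match, to the ETS core, next to the start of Tsc2. In Ercc8/Ndufaf2 both strands carried NF-Y matches that touch end to end. A match is a run of letters and was not tested for binding.

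Of 23 opposite-strand gene pairs that are often cited as divergent or neighbouring, 21 had a shared region in these T cells. Such pairs were listed for being close, and a promoter entry can lie up to 3000 bp upstream, so a high count is favoured by the annotation. The rate among other close opposite-strand pairs was not computed. Positions of regions here and below are in GRCm39. Regions of 750 bp lay at Prkdc/Mcm4 (a DNA repair kinase and a replication helicase subunit), Atm/Npat (a DNA damage kinase and an activator of histone genes), Xpc/Lsm3 (a DNA damage sensor and an RNA-binding protein) and Bcs1l/Zfp142 (a complex III assembly factor and a zinc finger protein). Regions of 700 bp lay at Hspd1/Hspe1 (the mitochondrial chaperonin and its cochaperonin), Tap1/Psmb9, Pms2/Aimp2, Sars2/Mrps12 (mitochondrial translation) and Ercc8/Ndufaf2. Regions of 650 bp lay at Brca2/Zar1l, Ranbp1/Trmt2a, Hars/Hars2 (histidyl-tRNA synthetases), Tcp1/Mrpl18 and Nthl1/Tsc2, and regions of 600 bp at Ppat/Paics (purine synthesis), Surf1/Surf2 and Cd3d/Cd3g. The narrowest, of 500 bp, lay at Brca1/Nbr1 and Gart/Son (purine synthesis and a splicing protein).

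In 17 of these 21 pairs the region carried a combined promoter and exon entry for both genes, so that it overlapped an exon of each. The exceptions were Brca1/Nbr1, Gart/Son and Cd3d/Cd3g, where 1 gene had a promoter entry without an exon, and Brca2/Zar1l, where neither had an exon entry and the RefSeq starts were 4462 bp apart. At Brca1/Nbr1 the nearest Brca1 exon lay 520 bp from the region, while the RefSeq starts were 152 bp apart. The stretch printed for this pair may thus lie beside the region. Tk1/Afmid and Col4a1/Col4a2 had no shared region. Tk1 (thymidine kinase) and Afmid each had 1 promoter region, while Col4a1, a basement membrane collagen, had none.

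The table's promoter class reaches far upstream, and this sets what "shared" means here. Of 7077 promoter entries with no exon or intron part, 6700 had their nearest exon downstream, at up to 3000 bp and at a median of 1604.5 bp. Among the 3458 shared regions with exactly 2 promoter genes (89.5% of 3865), 2005 (58.0%) had a promoter and exon entry on both strands. A further 907 (26.2%) had a promoter and exon entry on 1 strand and promoter alone on the other, and 145 (4.19%) had promoter alone on both. A further 340 regions (8.80%) named 3 genes, and up to 11 genes were named.

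Fewer regions joined 2 coding genes than joined a coding gene to one that was noncoding or known only by an identifier. Genes were sorted by matching their names to RefSeq. Both strands held a protein-coding gene in 1543 regions (39.9%). A coding gene faced a gene known only by an Ensembl identifier in 1452 (37.6%), a long noncoding RNA in 534 (13.8%) and another kind of gene, such as a small RNA, in 150 (3.88%). No gene on either strand was matched as coding in 186 (4.81%). Genes known only by an Ensembl identifier were not matched, so some may be coding, and the coding counts here and below leave them out. The regions named 7249 genes, which is 35.7% of the 20321 genes with any promoter region. Of them 4581 were coding, and 2678 of these (58.5%) faced at least 1 coding gene. Of the others, 1798 had an Ensembl identifier only, 555 were long noncoding and 148 were small RNA genes. The strand given in the table was the RefSeq strand for 4246 of the 4258 genes with a RefSeq promoter entry.

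Where RefSeq gave both starts, most paired genes ran away from each other over a short distance. RefSeq gave a start for both genes of 1415 of the 3953 opposite-strand pairs. Matching favoured pairs of coding genes, of which 1043 of 1368 were matched. The pooled shares below therefore describe mainly coding pairs. Where a gene had several starts, the combination with the smallest distance was taken, so the distances are the shortest that RefSeq allows. In 1198 (84.7%) the minus-strand start lay to the left of the plus-strand start, which is the divergent arrangement, at a median distance of 236.5 bp (quartiles 100.25 and 1339 bp). In 865 pairs (61.1%) the starts were divergent and within 1 kb. Of these 865, 300 (34.7%) lay 1 to 100 bp apart, 241 (27.9%) 101 to 200 bp, 136 (15.7%) 201 to 300 bp, 107 (12.4%) 301 to 500 bp and 81 (9.36%) 501 to 1000 bp. The number of pairs thus fell with distance, although the first 3 classes span 100 bp each and the later ones more. In 132 pairs the RefSeq starts were further apart than the 7100 bp that 2 promoter windows at 1 region can span, so the table used other starts for these genes. Without them 85.0% were divergent, at a median of 203 bp. The rule itself bears on this share, because the promoter class reaches up to 3000 bp upstream and so admits divergent starts that are far apart. The share among opposite-strand neighbours without a shared region was not computed.

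**Figure D1:**
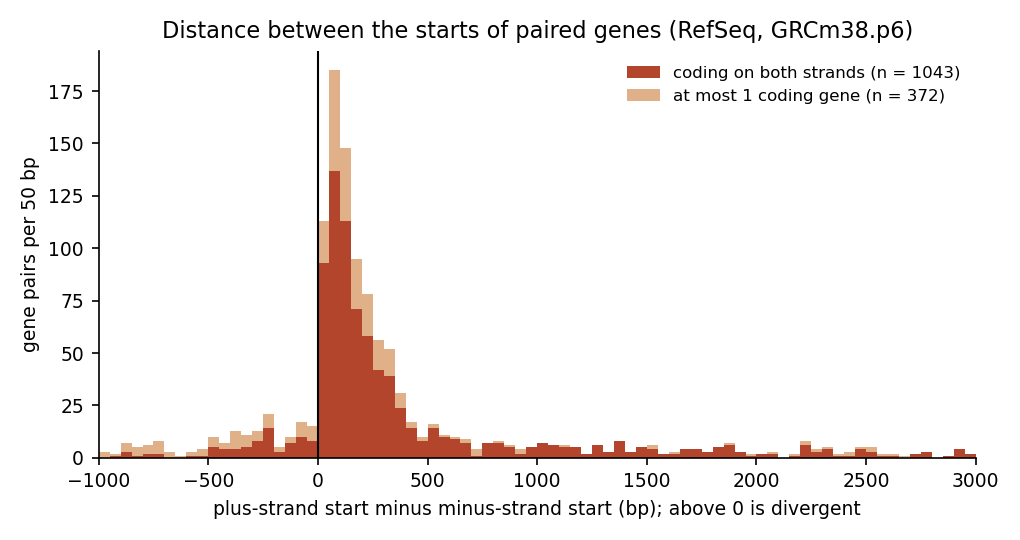
Distance between the annotated starts of opposite-strand genes that share an accessible promoter region, as plus-strand start minus minus-strand start in bp, with the number of gene pairs per 50 bp on the vertical axis and bars stacked by coding content. Most pairs stand just above 0, the divergent side, where 865 of 1415 pairs lie within 1 kb, and 240 pairs fall outside the plotted range.

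Pairs of coding genes were divergent in 950 of 1043 (91.1%), with a median distance of 254 bp. Pairs with at most 1 coding gene were divergent in 248 of 372 (66.7%). In the other 124 (33.3%) the plus-strand start lay to the left of the minus-strand start, or at it. In this order, transcripts longer than the distance between the starts overlap near their starts. Among pairs of coding genes 93 (8.92%) had this order, for example Hspd1/Hspe1 (-95 bp), Surf1/Surf2 (-122 bp) and Ppat/Paics (-276 bp). Where both genes had a promoter and exon entry, 722 of 976 pairs (74.0%) were divergent within 1 kb. With any other classes, 143 of 439 (32.6%) were. The classes set part of this contrast by definition, since a promoter entry alone can lie up to 3000 bp from the nearest exon.

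The table's own distances to neighbouring exons, which are in the build of the files, could be read for all regions with 2 genes and left the arrangement less clear. In 1353 of 3458 (39.1%) the next exon of each gene lay in its own downstream direction. In 929 (26.9%) this held for 1 gene while the other had no further exon within the 5000 bp listed, and in 226 (6.54%) neither had one. In 950 (27.5%) at least 1 gene had an exon upstream of the region, with or without another downstream, as at a start inside a longer gene.

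Shared regions were a little wider than other promoter regions. Their median width was 650 bp (quartiles 550 and 700 bp) with 8 windows, the tested intervals that the table merges into a region, against 600 bp (500 and 650 bp) with 7 windows for the 19055 promoter regions of genes on 1 strand, and 550 bp (500 and 600 bp) with 6 windows for the 43063 regions with no promoter entry. The means were 629 ± 124 bp (SD), 590 ± 123 bp and 545 ± 109 bp, so each step was smaller than the spread among regions. Widths of at least 700 bp were found in 1334 shared regions (34.5%), in 4069 promoter regions on 1 strand (21.4%) and in 2939 regions without a promoter entry (6.82%).

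**Figure D2:**
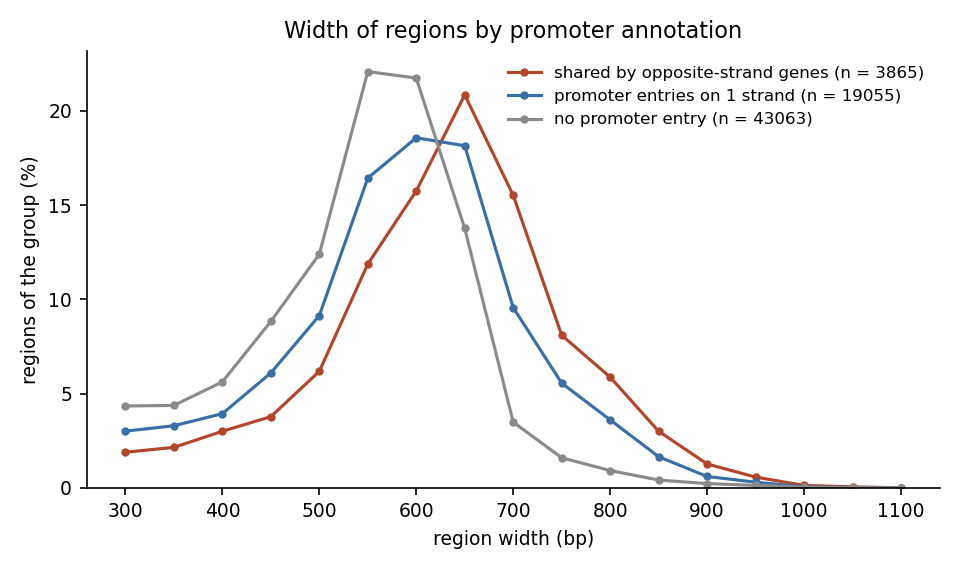
Region width in bp against the percentage of regions of each group, for regions shared by opposite-strand genes, regions with promoter entries on 1 strand and regions with no promoter entry. The shared regions peak at 650 bp and extend further to the right, with 34.5% at 700 bp or wider against 21.4% and 6.82%.

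The overlap with exons moved with width as well. Among regions on 1 strand, the 11899 with a promoter and exon entry had a median of 650 bp (mean 621 ± 120 bp), the same median as shared regions. Shared regions with such entries on both strands had a median of 650 bp too (mean 666 ± 109 bp, n = 2005), and 45.4% of them reached 700 bp against 30.5% of the former. Shared regions with promoter alone on both strands had a median of 550 bp (n = 145). Within the divergent pairs the median width was 650 bp at start distances of 1 to 300 bp, 700 bp at 301 to 500 bp and 600 bp at 501 to 1000 bp. Regions with coding genes on both strands had a median of 650 bp (mean 647 ± 116 bp). Those with no gene matched as coding had one of 600 bp (591 ± 117 bp).

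The widest shared regions did not all have the most windows. The region at Pip5kl1 (a lipid kinase-like gene) and an Ensembl-named gene (chr2:32464901-32465950) and the region at Pask, Ppp1r7 and Mir6902 (chr1:93270451-93271500) were both 1050 bp wide but held 7 and 4 windows. In most of the table (97.8% of regions) the width is 250 bp plus 50 bp per window, and these 2 are wider than that. The regions at Zfp689, at Islr, Islr2 and 1600029O15Rik, and at Olfml3 were 1000 bp wide, with 15, 15 and 14 windows. The narrowest in table order were those at Ptpn7/Ptprv (chr1:135058801-135059100) and Kiss1r/R3hdm4 (chr10:79755301-79755600), of 300 bp and 1 window each. Ptpn7 is a phosphatase of lymphocytes.

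The regions with the most promoter genes lay at hosts of small RNAs or in a developmental cluster. A region of 750 bp at Zbtb37 (chr1:160862051-160862800) faced Gas5, a noncoding host gene of small nucleolar RNAs, and named 11 genes, among them Snord47, Snord78 and Snord80. A region of 700 bp at Slc3a2, the heavy chain CD98 of amino acid transporters that activated T cells use (chr19:8700301-8701000), faced Snhg1, also a small nucleolar RNA host, and named 10 genes. A region of 350 bp at Hoxa11 and its antisense gene Hoxa11os (chr6:52223401-52223750) named 8, of which 6 have an Ensembl identifier only.

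A few pairs shared more than 1 region. Of the 3953 pairs, 3520 had 1 region, 411 had 2 and 22 had 3 or more, at a median gap of 1500 bp. Gcat, an enzyme of threonine breakdown, and an Ensembl-named gene had 4, between 78912301 and 78915350 on chromosome 15. Zap70, the kinase that relays the T cell receptor signal, and Gm18828 had 3 (chr1:36803301-36808450), as did Stk16/Glb1l, Yod1/Pfkfb2, Atp5d/Cbarp, Abhd15/Trp53i13, Cfap97d1/Dusp3 and Bahcc1 with an Ensembl-named gene. Joining shared regions less than 1 kb apart gave 3781 loci, of which 3698 held a single region.

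The share of promoter regions that were shared differed between chromosomes. It was highest on chromosome 7 (351 of 1673, 21.0%), chromosome 17 (231 of 1184, 19.5%) and chromosome 8 (222 of 1163, 19.1%). It was lowest on the X chromosome (58 of 536, 10.8%), and among autosomes on chromosome 18 (80 of 556, 14.4%) and chromosome 10 (175 of 1211, 14.5%). The Y chromosome had a single promoter region, which was not shared.

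**Figure D3:**
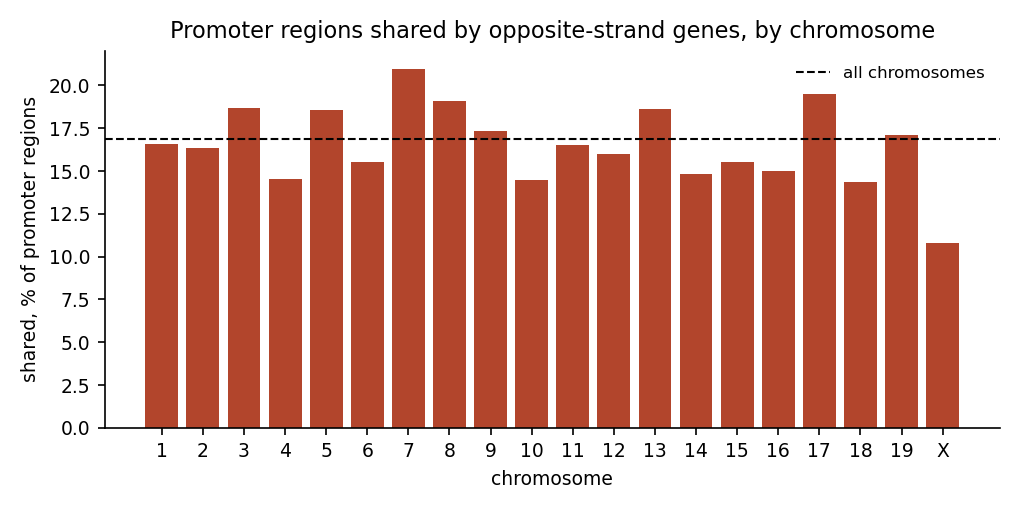
Percentage of promoter regions that are shared by opposite-strand genes (bars), by chromosome, with the value over all chromosomes, 16.9%, as a dashed line. Chromosome 7 stands highest at 21.0% and X lowest at 10.8%; chromosome Y, with 1 promoter region, is left out.

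Gene groups differed widely in how many members had a shared promoter region. Over all 13514 coding genes with a promoter region, 4581 (33.9%) had a shared one and 2678 (19.8%) had one shared with another coding gene. The share rose with the number of promoter regions a gene had, from 31.0% with 1 to 41.9% with 4 or more. Among 76 DNA repair genes it was 65.8% (50 genes, 95% Wilson interval 54.6 to 75.5), and 44 of the 50 faced a coding gene. Examples were Apex1, a base excision repair nuclease, with Osgep (chr14:51162001-51162650), Atm with Npat, Atr, a replication stress kinase, with 1700065D16Rik, Brca1 with Nbr1, and Brca2 with Zar1l. Among 47 genes for complex I of the respiratory chain it was 57.4% (27 genes), for example Ndufa1 with Rnf113a1, Ndufa11 with Vmac, Ndufa13 with Tssk6, Ndufa2 with Ik, and Ndufa3 with Oscar, an osteoclast receptor. Among 77 mitochondrial ribosomal proteins it was 53.2% (41 genes), for example Mrpl10 with Lrrc46, Mrpl13 with Mtbp, Mrpl18 with Tcp1, Mrpl2 with Klc4, and Mrpl21 with Ighmbp2. The intervals are for counting only, since genes that share a partner or a cluster are not independent.

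Among 56 histone genes (names beginning H1f, H2ac, H2bc, H3c and H4c) 47 had a shared region (83.9%, interval 72.2 to 91.3). In the histone clusters genes stand head to head. In 8 regions, all on chromosome 13, a coding H2A gene faced a coding H2B gene with promoter and exon entries on both strands, and these regions were 600 to 700 bp wide (median 675 bp). They involved 8 of the 12 coding H2A genes with a promoter region. Promoter and exon entries on both strands were found for 23 of the 47 histone genes (48.9%), against 68.4% of all coding genes with a shared region. The first 5 histone genes in alphabetical order were H1f0, a linker histone gene outside those clusters that faced an Ensembl-named gene on chromosome 15, H1f1 with H4c1 and H3c1, H1f3 with H4c6, H2ac10 with an Ensembl-named gene, and H2ac11 with H2bc11 (chr13:22226951-22227650, 700 bp).

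Other groups stood nearer to the 33.9% of all coding genes. The share was 47.1% among 34 aminoacyl-tRNA synthetases (interval 31.5 to 63.3), with Aars facing Ddx19b, Ears2 facing Ubfd1, and Cars and Eprs facing Ensembl-named genes. It was 39.5% among 38 proteasome subunits, with Psma2 facing Mrpl32, Psma7 facing Ss18l1, Psma4 facing AY074887, Psma5 an Ensembl-named gene and Psma6 a ribosomal pseudogene. Among 77 cytosolic ribosomal proteins it was 35.1%, with Rpl12 facing Lrsam1, Rpl15 facing Nkiras1, Rpl18 facing Sphk2 in 2 regions, Rpl19 facing Cacnb1 and Rpl10a an Ensembl-named gene. Zinc finger genes named Zfp had 28.2% (94 of 333), among them Zfp119b with Ebi3, a cytokine subunit, Zfp13 with Zscan10, Zfp142 with Bcs1l, Zfp143 with an Ensembl-named gene and Zfp146 with Gm5113. Receptors of smell and pheromones stood lower, with 3 of 33 (9.09%), namely Olfr56, Vmn1r236 and Vmn1r4.

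**Figure D4:**
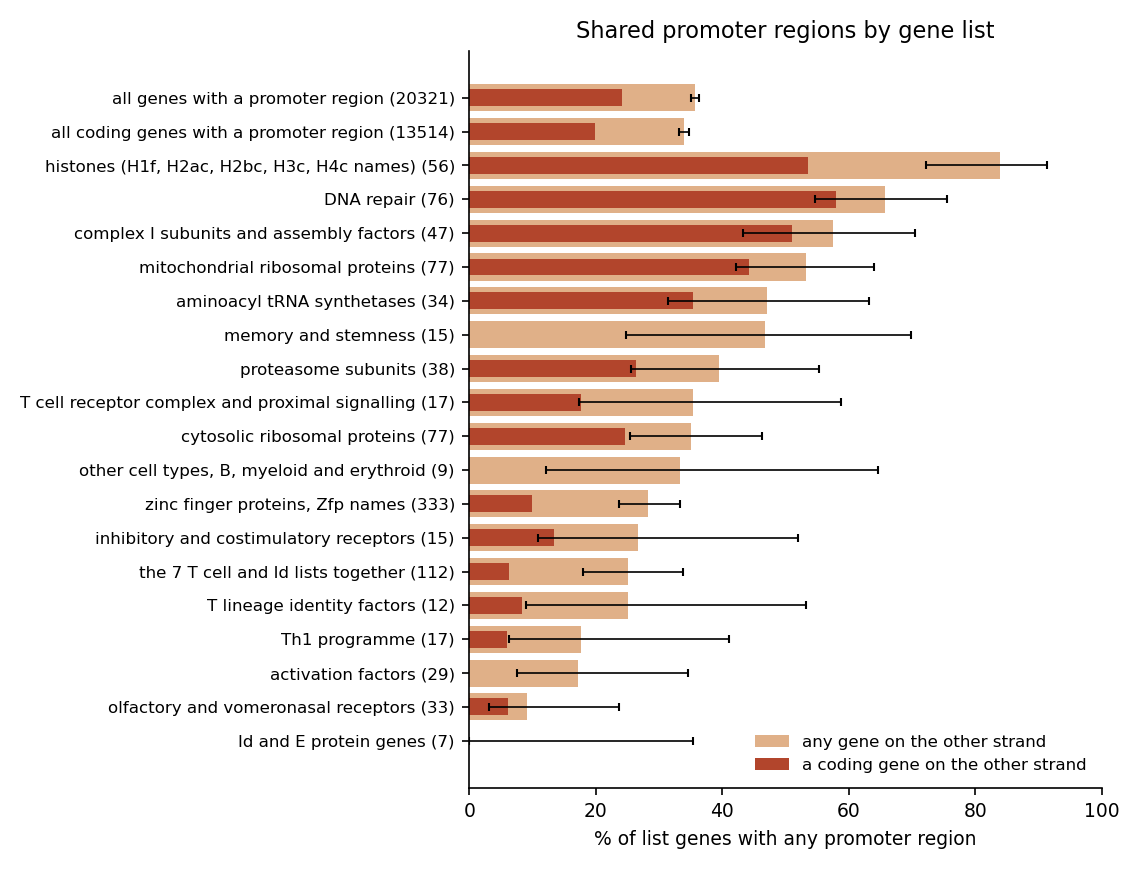
Percentage of the genes of each list with any promoter region (number in brackets) that have one shared with a gene on the other strand (wide bars, with 95% Wilson intervals) or with a coding gene there (narrow bars). Histone and DNA repair genes stand highest at 83.9% and 65.8%, all coding genes are at 33.9% and the T cell and Id lists together at 25.0%.

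The genes of the T cell programme seldom shared a promoter region with a coding gene. Over 7 lists with 112 genes that had a promoter region, 28 (25.0%, interval 17.9 to 33.8) had a shared one, against 33.9% of coding genes. Of these 28, 7 faced a coding gene, which is 6.25% of the 112 against 19.8% over all coding genes, although T cell genes had more promoter regions each (2.07 against 1.51). In 8 of the 28 (28.6%) both genes had a promoter and exon entry, against 3132 of 4581 (68.4%) over all coding genes with a shared region. Of the 7 Id and E protein genes, which include Id3 itself, 0 had a shared region (interval up to 35.4%). Id3 had 2 promoter regions, at chr4:135867501-135868100 and chr4:135870851-135871350, and both named Id3 alone. With no value per sample, the regions could not be used to check the knockout.

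The coding partners were few enough to list in full. Cd3d and Cd3g, which encode the delta and gamma chains of the T cell receptor complex, faced each other in a region of 600 bp (chr9:44891451-44892050). This region overlapped an exon of Cd3g, while the nearest Cd3d exon began 1034 bp away and the RefSeq starts were 1355 bp apart. Cd8b1, a CD8 chain, faced Smyd1, a methyltransferase of muscle (chr6:71299351-71299900, 550 bp). Il12rb1, the receptor chain for the IL12 in the medium, faced Mast3, a kinase (chr8:71259151-71259700, 550 bp), and their nearest exons were 1393 and 1453 bp away. Entpd1 faced Tctn3 (chr19:40600401-40601050, 650 bp) with exons of both, and the RefSeq starts were 135 bp apart. Tnfrsf9, the costimulatory receptor 4-1BB, faced Park7, a gene of the oxidative stress response, in 3 regions of 600, 500 and 700 bp on chromosome 4, and the RefSeq starts were 10234 bp apart, further than the table's promoter windows reach. Foxp3, the master factor of regulatory T cells, faced Ppp1r3f, a phosphatase subunit, in regions of 450 and 850 bp on the X chromosome, with starts 5395 bp apart.

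The Cd3 pair shows the other extreme to the close pairs above, because the shared region lies at Cd3g and only the long promoter class brings in Cd3d. The 250 bases before each start are printed on the strand of the gene, with the same motifs in capitals, Cd3g on the minus strand (chr9:44980432-44980681, GRCm38.p6) and Cd3d on the plus strand (chr9:44981536-44981785).
Cd3g: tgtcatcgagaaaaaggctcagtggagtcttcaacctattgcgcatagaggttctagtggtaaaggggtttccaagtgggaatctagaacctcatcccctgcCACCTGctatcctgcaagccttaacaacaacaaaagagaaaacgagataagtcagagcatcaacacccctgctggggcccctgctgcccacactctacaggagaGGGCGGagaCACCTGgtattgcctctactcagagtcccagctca
Cd3d: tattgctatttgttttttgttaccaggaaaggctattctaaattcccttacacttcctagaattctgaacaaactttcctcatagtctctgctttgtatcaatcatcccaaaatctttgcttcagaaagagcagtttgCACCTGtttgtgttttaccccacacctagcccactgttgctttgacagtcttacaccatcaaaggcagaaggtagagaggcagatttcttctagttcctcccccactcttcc
The Cd3g stretch held 4 CpG dinucleotides at 51.6% G and C, an SP match and 2 matches to the E-box CAGGTG, read here as its reverse complement. The Cd3d stretch held no CpG, 41.2% G and C and 1 E-box match. E-boxes are the sites that E proteins bind, but such a match is common, as the shares below show.

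The other 21 T cell genes faced a gene that was a noncoding or small RNA gene, a pseudogene (Gm18828, at Zap70) or known by an Ensembl identifier only. In the T cell receptor list these were Cd247 (the zeta chain, region of 350 bp), Cd5 with A430093F15Rik (600 and 550 bp) and Zap70. In the Th1 list they were Hlx and Runx3, both transcription factors, with Ensembl-named genes. In the memory list they were Bach2 with Bach2os, Zeb2 with Zeb2os, Zeb1 with Gm10125, and Bcl6, Foxo1, Satb1 and Tcf7 (which encodes the memory and stemness factor TCF-1) with Ensembl-named genes. Among costimulatory and inhibitory genes they were Tnfrsf18 (GITR) and Tox, a factor of T cell exhaustion. Among activation factors they were Nfkb2 with 4833438C02Rik, Jak1 with a small RNA gene, and Fosl2, Jund and Myc with Ensembl-named genes. Among lineage factors they were Gata3, with 3 regions of 300 to 500 bp, and Zbtb7b (ThPOK, the CD4 lineage factor) with Gm15417, with 3 regions of 550 to 600 bp. The memory list thus had 7 of 15 genes with a shared region but 0 with a partner matched as coding.

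Promoters of genes with a shared region were richer in CpG than those of genes with promoter regions on 1 strand only. RefSeq windows of 300 bases (250 before and 50 from the start on) matched 5384 starts of the former and 9363 of the latter. The median G and C content was 61.0% against 59.3%, and 52.7% over all 32851 RefSeq windows. The median ratio of observed to expected CpG was 0.776 against 0.687, and 0.384 over all windows. Genes of divergent pairs within 1 kb had 2182 windows (divergent windows below), with medians of 62.7% and 0.842. These count every matched RefSeq start of such genes, so they include alternative starts away from the partner. Windows with more than 50% G and C and a ratio over 0.6 made up 79.9% of these divergent windows, 67.6% of shared, 56.2% of 1-strand and 33.3% of all windows. Windows of close pairs overlap each other, so they are not independent, and 541 of 541 pairs within 200 bp had the same letters where they overlap.

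Of the 9 motifs, the ETS core had the largest gap between divergent and 1-strand windows. CCGGAAG, bound by ETS factors such as GABPA and Ets1, was found on either strand in 27.3% of the divergent windows (interval 25.4 to 29.2), in 20.3% of shared (19.2 to 21.4), in 13.3% of 1-strand (12.6 to 14.0) and in 8.86% of all windows. With only the plus-strand genes of these pairs it was 27.0% (n = 1093 windows, alternative starts included). Within CpG-rich windows the order was kept, at 30.8%, 26.2% and 18.3%. AAGATGG, the core of YY1, was found in the same 4 sets of windows in 10.0%, 7.76%, 6.01% and 6.34%, and TGACGTCA, the cyclic AMP response element, in 4.12%, 3.66%, 2.48% and 1.79%. CCAAT was found in 41.6%, 39.3%, 36.9% and 37.4%. GCATGCGC, the core of NRF1, a factor of nuclear genes for mitochondria, was found in 6.46%, 5.14%, 4.51% and 2.71%. Within CpG-rich windows it was 7.28%, 6.62% and 6.64%.

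Other motifs went the opposite way or changed order with CpG content. GGGCGG was found in 66.5% of divergent, 60.9% of shared, 57.7% of 1-strand and 35.7% of all windows, but within CpG-rich windows in 74.6%, 75.3% and 78.6%. TATAAA was found in 5.36%, 6.74%, 8.23% and 13.6%. The E-boxes were less frequent in divergent windows: CAGCTG was found in 13.6%, 14.8%, 16.2% and 16.3%, and CAGGTG in 16.5%, 18.7%, 19.6% and 20.2%. Within CpG-rich windows CAGCTG was found in 11.9%, 12.5% and 13.2%, and CAGGTG in 15.3%, 16.6% and 17.7%. There the intervals of divergent and 1-strand windows overlapped for both E-boxes.

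**Figure D5:**
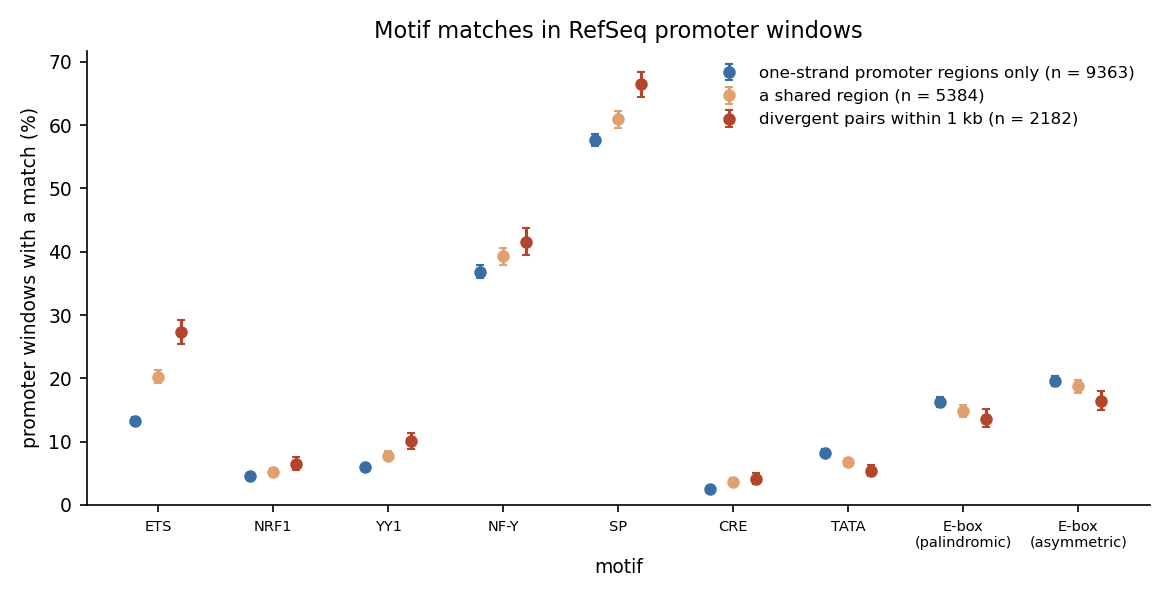
Percentage of RefSeq promoter windows of 300 bases with at least 1 match on either strand, for 9 motifs, with 95% Wilson intervals, in genes with promoter regions on 1 strand only, genes with a shared region and genes of divergent pairs within 1 kb. The ETS core rises from 13.3% through 20.3% to 27.3%, and both E-boxes and TATAAA stand lowest in divergent pairs.

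The rule has a boundary that the annotation makes visible. Just outside it were 2032 promoter regions on 1 strand (10.7% of 19055) that overlapped an exon or intron of a gene on the other strand without a promoter entry for it. Their median width was 550 bp. Just inside it were the 145 regions with promoter alone for both of 2 genes, whose median was also 550 bp.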

How the data were processed

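The deposited table lists 65983 regions under each of 6 contrasts of 18 ATAC-seq samples, with no value per sample, so depth is unknown. The submitters' processing notes name Trim Galore, BWA, Picard and edgeR, with no version or role, and the build GRCm39. The making and merging of windows is not described in these sources. Per the file headers, the deposited columns give start, end, width, the number of tests (windows), overlapped genes and flanking exons. The deposited fold changes and p-values follow the row order and were not used.

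Regions were counted once. Gene kinds, starts and promoter sequences came from RefSeq tables of GRCm38.p6, matched by symbol, with no coordinate carried between builds. Ensembl identifiers without a symbol stayed unmatched. Motifs were searched on both strands, and the Wilson 95% intervals allow for counting error alone. Regions are not replicates, so no test was run. The scripts (Python 3.11.15, pandas 2.3.3, numpy 2.4.6) were tested on simulated annotation. The named genes were all pairs of a list of known pairs, all T cell, Id and E protein genes with a shared region, the 5 widest, 2 narrowest and 3 most gene-rich regions, and up to 5 genes of each other list in alphabetical order. A few of these genes are not reported here. The members, lists and motifs were chosen with earlier results of these data known.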

Additional observations from a re-analysis of the deposited data

How the results depend on the processing

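The number of shared regions depends on which annotation entries count. It was 2279 when both strands had to hold a gene with a name other than an Ensembl identifier. This was 11.3% of the promoter regions left under that setting, which are fewer than all promoter regions. The number was 1562 when Gm, Rik and antisense names were left out as well. The number of shared regions was 212 with promoter alone, without exon or intron, on both strands. Chosen after seeing the data, a promoter and exon entry on both strands gave 2268, and allowing an exon or intron entry or a downstream exon within 500 bp gave 2757. Requiring at least 2 or 6 windows or 500 bp of width, or joining neighbours within 1 kb, gave 3189 to 3792. The median width (650 bp) and window number (8) did not move without Ensembl-named genes or single-window regions. With 1 start per gene, also chosen after seeing the data, the ETS core was found in 21.4% of windows of genes with a shared region against 14.2% of 1-strand windows, NF-Y in 40.7% and SP in 63.2%. Start distances and motifs in the build of the files were not run. No paired analysis was possible because per-sample values were not part of the file used, and no replicate could be left out for the same reason.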
